A study of Mus musculus with 10 samples.

Results

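The kinetics of RNA in wild-type mouse cortical neurons were described gene by gene from a table of synthesis, processing and degradation rates. Only the wild-type columns were used, which hold the 3 rates in each of 2 labelled libraries. A gene was kept when all 6 of its values were finite, above 0 and under 1000, and 7049 of the 8590 genes in the table (82.1%) met that rule. Fmr1, the gene deleted in the other genotype of the series, had no processing rate at 20 min and was not kept. No genotype was compared, and since one group alone was described, no test was run.

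RNA abundance is set by how fast a gene is transcribed, how fast its precursor is spliced and matured, and how fast the mature transcript is destroyed. Transcripts of signalling regulators and transcription factors are typically made and destroyed quickly, so that their amount can follow a stimulus, whereas those of metabolic and structural proteins are typically long-lived. In neurons, which have to keep many synapses supplied and also respond to activity, both kinds are prominent. Metabolic labelling separates these steps because a uridine analogue marks only the RNA made while it is present.

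The neurons came from cerebral cortices of embryonic day 18 mice of the strain FVB.129P2-Pde6b+ Tyrc-ch/AntJ and were wild type. They were kept 14 days in vitro in Neurobasal medium with B-27. One wild-type library was made after 20 min and one after 60 min with 200 µM 5-ethynyluridine (5-EU), which was then clicked to biotin so that new RNA could be pulled down. Fly RNA carrying 5-EU and yeast RNA without it were added at 10% by weight each. The series has 10 samples, of which the wild type contributed 2 labelled libraries, 2 unenriched inputs and 1 pull-down of unlabelled RNA. Whether the 20 and 60 min libraries came from separate cultures is not stated, so the spread between them mixes culture, labelling time and technical error. The sources do not give the time unit of the rates, so values are printed as table units and only ratios between genes can be read as sizes.

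Marker genes of the cells that such cultures hold were looked up first. Of 13 neuron markers listed, 5 were in the table and 4 passed the rule: Dcx, a microtubule protein of young neurons, had an implied level (synthesis over degradation rate, in table units, which stands for mature RNA) of 51.8, Rbfox3 34.3, Gad2, which makes GABA, 24.4 and Nefm 8.78. Astrocyte markers were present too, with 3 of 10 passing: Aldh1l1 at 39.3, the gap junction gene Gja1 at 23.6 and the water channel gene Aqp4 at 8.28. Of 10 markers of the oligodendrocyte lineage 4 passed, among them Olig2 at 45.7 and the myelin gene Mbp at 1.72. Summed levels were 119 for neuron, 71.2 for astrocyte and 57.6 for oligodendrocyte lineage markers, and 0 of 8 microglia markers and 0 of 6 fibroblast or vessel markers passed. Rates of a gene expressed in several of these cell types are averages over them, and in such bulk RNA fewer cells of a type and less RNA per cell cannot be told apart. What part each cell type has in the rates below was not tested.

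The median synthesis rate was 0.998 table units (1.02 at 20 min, 0.987 at 60 min), the median processing rate 7.24 (7.34 and 7.25) and the median degradation rate 0.107 (0.109 in both). Genes spread widely around these values: the 95th percentile exceeded the 5th by 16.5-fold for synthesis, 17.2-fold for processing and 10.8-fold for degradation. Gene ranks of both libraries correlated across the 7049 genes with a Spearman rho of 0.753 in synthesis, 0.741 in processing and 0.70 in degradation. A typical gene had an SD between libraries of 0.44 log2 units, and 1886 genes (26.8%) differed by more than 2-fold.

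**Figure D1:**
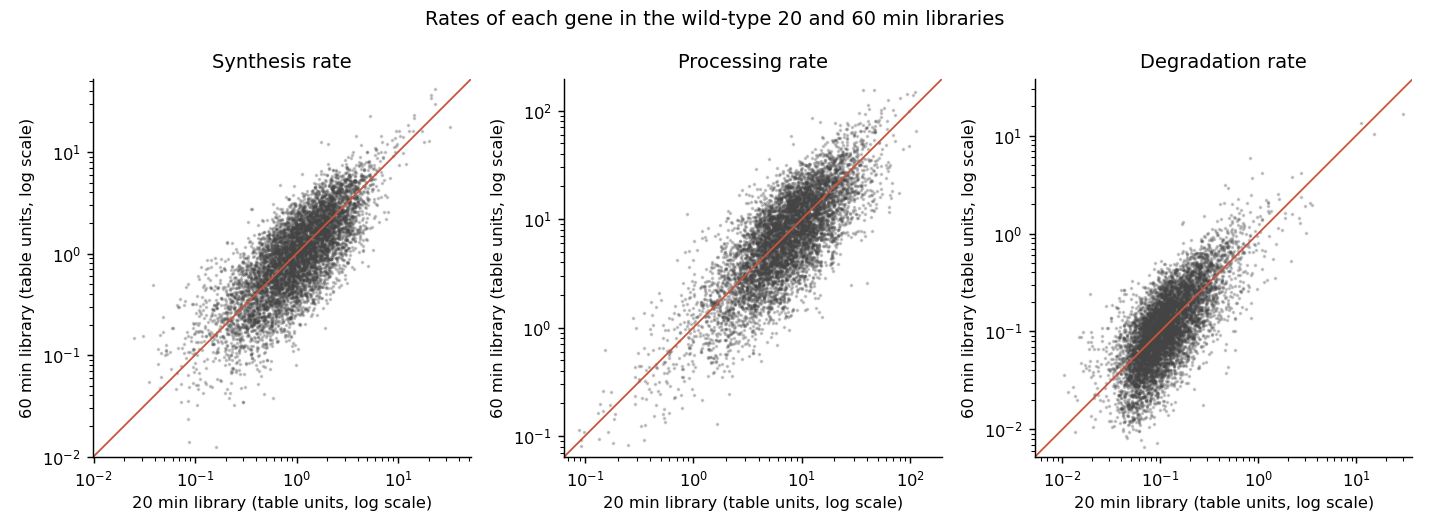
Each point is 1 of 7049 genes, with its rate in the wild-type 20 min library on the x axis and in the 60 min library on the y axis (table units, log scales; line: equal values), for synthesis, processing and degradation. Points scatter around the line (rho 0.753, 0.741 and 0.70), and the slowest degradation rates reach lower in the 60 min library.

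The ratios between the rates of a gene carried no such scatter. Synthesis over degradation, called the implied level here, was the same in both libraries for every one of the 7049 genes, within 9.6e-08 log2 units. The same held for synthesis over processing, the implied level of premature RNA, within the tolerance of 0.001 log2 units. A gene's 3 rates therefore move together between libraries by one common factor. Both libraries carry the same implied levels, so the error of these levels cannot be estimated from them. Genes outside the rule show what the implied level holds. In all 525 genes with a processing rate in 1 library only, synthesis over degradation in the library without it equalled the sum of synthesis over degradation and synthesis over processing in the other, within the same tolerance. In the kept genes synthesis over degradation is thus the level of mature RNA, to which premature RNA adds. The median implied level was 8.41 and the median implied premature level 0.138.

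Among single genes, Mycn (chr12:12936093-12941914, GRCm38, minus strand), a proto-oncogenic transcription factor, had the highest synthesis rate, 23.3 at 20 min and 41.8 at 60 min (32.5 ± 13.1, SD, n = 2), and its geometric mean was 31.2-fold above the median gene. Plk2, a kinase induced by neuronal activity that acts in synaptic scaling, was at 21.2 and 36.2. The RNA-binding protein gene Mex3b was at 20.9 and 34.3. All 3 were higher at 60 min, by less than 2-fold. Spry2, a feedback inhibitor of receptor tyrosine kinase signalling, was at 23.3 and 30.0, and Efnb2, a ligand of Eph receptors, at 12.5 and 18.4. Id2, an inhibitor of basic helix-loop-helix factors, was at 17.1 and 16.0 (16.6 ± 0.829, SD, n = 2) and Neurod6, a helix-loop-helix factor of cortical excitatory neurons, at 14.2 and 16.3. Among the leading 10, Id2 and Neurod6 had the smallest SD between libraries. The others were the transcriptional co-regulator Irf2bp2, the adhesion gene Flrt3 and the arrestin-like gene Arrdc3, whose synthesis rate was 20.4 and 12.9. At the slow end, by contrast, both libraries of each of the 10 lowest genes were at or under 0.160.

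The slowest synthesis belonged to Hspg2 (chr4:137468769-137570630, plus strand), which encodes the basement membrane protein perlecan: 0.0870 at 20 min and 0.0140 at 60 min. Pold1, the catalytic subunit of DNA polymerase delta, was as low and far steadier, at 0.0448 and 0.0476 (0.0462 ± 0.00199, SD, n = 2). Prkdc, the DNA-dependent protein kinase that joins broken DNA ends, was at 0.0848 and 0.0356. Spice1, a centriole gene, was at 0.0353 and 0.0549. Replication and centriole proteins serve mainly dividing cells. The others were Phka2, L3mbtl1, Rgs9, Susd1, P4ha3 and the calcium-permeable channel gene Trpm2. The widest gap between libraries in this list was that of Phka2, 0.160 against 0.0125.

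**Figure D2:**
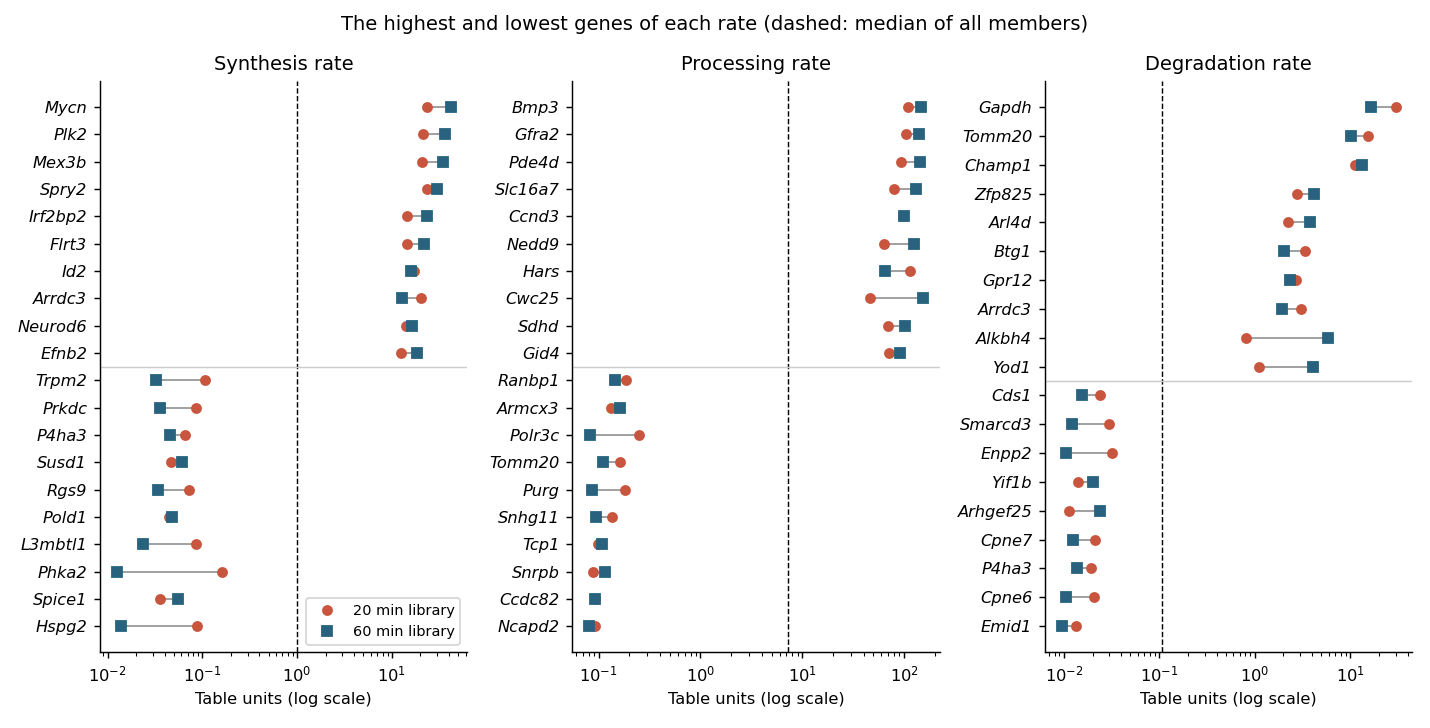
The highest and lowest genes for each rate (10 at each end, with 1 of the lowest degradation rates not shown), with the 20 min library (circle) and the 60 min library (square) joined by a line, in table units on a log scale; the dashed line is the median of all 7049 genes. Both libraries of every named gene lie on the same side of the median, and Phka2 (0.160 against 0.0125) and Hspg2 (0.0870 against 0.0140) are among the wide gaps between libraries.

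Gene families were described next, from 41 lists, 40 of which had at least 5 genes and which together held 1510 genes. A gene was called fast when it lay in the highest 25% in both libraries and slow when it lay in the lowest 25% in both. For synthesis, 16.2% of all genes were fast and 16.4% slow. Activity-induced genes had the highest family median, 5.05 (4.50 at 20 min and 6.6 at 60 min), and 11 of the 16 members were fast. Egr3, an immediate-early transcription factor, was at 10.5 and 14.3, and Rgs2, a brake on G protein signalling, at 11.2 and 9.70. Bdnf, which encodes a neurotrophin released with activity, was much lower at 1.18 and 1.26, close to the median gene. Cholesterol synthesis genes had a median of 2.80 (2.11 and 3.03) and 7 of 11 fast, the second highest at 60 min but under ribosomal protein, glycolytic and oxidative phosphorylation genes at 20 min. Among their leading members were Insig1, which senses sterols, at 8.78 and 13.0, and the enzyme gene Cyp51 at 3.81 and 6.38.

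Cytosolic ribosomal protein genes had a median synthesis rate of 2.60, with 28 of 41 fast and 0 slow (18 of the 40 left when the lowest 25% of implied levels are taken out), and unlike the previous families they were higher at 20 min (3.62) than at 60 min (2.08). Rpl32 was at 8.35 and 5.49, and Rps14 at 5.95 and 5.38. These genes have many processed pseudogenes, and how reads shared with them were assigned is not given in the sources used here. Their part in these values was not tested, and single ribosomal values are uncertain. V-ATPase subunits (2.13, 4 of 8 fast) and oxidative phosphorylation subunits (1.89, 14 of 42 fast) also had raised medians in both libraries. DNA replication and repair genes were at the bottom with a median of 0.452, 24 of 47 slow and 0 fast. Pola2, a DNA polymerase alpha subunit, was at 0.0534 and 0.102, and even the highest members, such as Parp1 at 1.56 and 1.27, were near the median gene. Glutamate receptors (0.652) and peroxisomal and fatty acid oxidation genes (0.628) were also below the median in both libraries. Across the 40 families the highest median exceeded the lowest by 11.2-fold for synthesis, and medians of the 20 and 60 min libraries correlated with rho of 0.662.

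**Figure D3:**
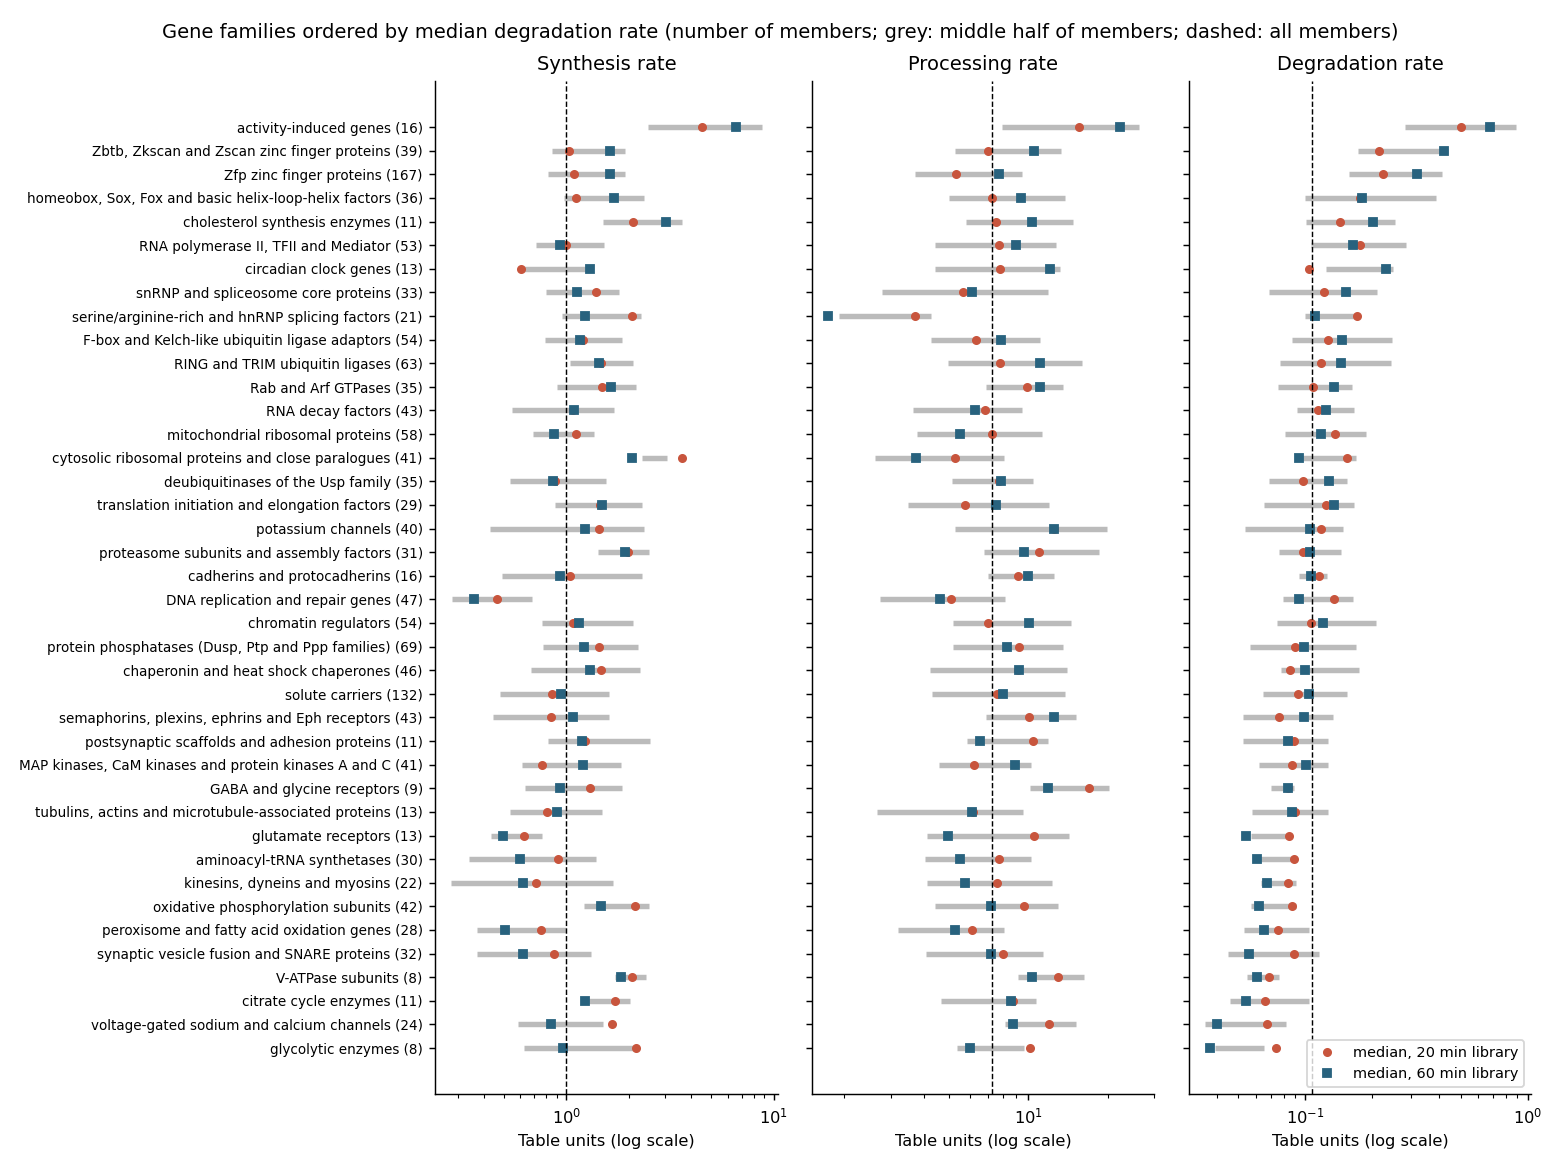
Medians of 40 gene families in the 20 min (circle) and 60 min (square) libraries for each rate, in table units on a log scale, with the highest degradation rate at the top; grey bars are the interquartile range of members by the mean of the libraries, dashed lines mark the median of all genes and numbers in brackets count members. Activity-induced genes have the highest median of every rate in both libraries except processing at 20 min, where GABA and glycine receptors are higher, splicing factors have the lowest processing and DNA replication and repair genes the lowest synthesis.

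Promoter sequence was available for 5651 of the genes in the RefSeq promoter table (GRCm38.p6, 250 bases before to 50 after a start site). The TATA box, TATAAA, was searched on the gene's strand with its first base 40 to 20 bases before the start site, and 44 genes (0.779%) had one in at least one promoter, against 2.31% of the 27025 gene symbols in the table. The 44 had a median synthesis rate of 1.80 (1.69 and 1.51) and the 5607 without a median of 0.983 (1.01 and 0.980). Of the 44, 16 (36.4%) were fast, against 857 (15.3%) of the others. The 4 fastest TATA promoters are shown for the position of the box, in capitals:
Sgk1: ttcctttagaTATAAAgtgggactcagaac
Zfp36l1: caccaaatctTATAAAttgggctttgcgcg
Mat2a: ccccctgctcTATAAAtactgggccgcttc
Phactr1: ttcatcacaaTATAAAacccgacagatcca
They lie at chr10:21992185-21992214 (plus strand), chr12:80113023-80113052 (minus), chr6:72439569-72439598 (minus) and chr13:42680755-42680784 (plus), with the first T of the box at -28, -29, -32 and -34. Sgk1, a kinase gene induced by glucocorticoids and activity, had synthesis rates of 5.27 and 22.5. Zfp36l1, which encodes a protein that destabilises AU-rich mRNAs, was at 7.02 and 6.0, Mat2a, which makes S-adenosylmethionine, at 5.14 and 6.01, and the actin regulator gene Phactr1 at 3.73 and 4.36. Genes can have several promoters, as Sgk1 does, and the rates are of the gene as a whole. Genes were also sorted into 5 classes of equal size by CpG dinucleotides, counted in the promoter with the most where several were listed. Median synthesis went from 0.790 in the lowest class (median 12 CpG) to 1.26 in the highest (median 40). Genes with more promoters listed can reach higher counts, and the part of that was not tested.

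Processing was faster than degradation in 7020 of the 7049 genes (99.6%), by a median of 63.8-fold and by over 10-fold in 6703 (95.1%). Bmp3, a secreted growth factor gene with 2 introns, was at 110 and 148 (129 ± 26.8, SD, n = 2). Gfra2, a receptor for neurturin, was at 105 and 140.5, and Pde4d, a phosphodiesterase gene that spans over a megabase at chr13:108449948-109953461, at 92.8 and 143. Ccnd3, which encodes a D-type cyclin, was the steadiest of the 10 at 97.1 and 100.2. The list was completed by the monocarboxylate carrier gene Slc16a7, Nedd9, Hars, Cwc25, Sdhd and Gid4, and the widest gap in it was that of Cwc25, at 46.3 and 154. The geometric means of all 10 were at least 11.2-fold above the median.

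The slowest 10 processing rates had geometric means 44.2- to 83.9-fold under the median. Ncapd2, a condensin subunit, was at 0.0924 and 0.0807. Snrpb, which encodes the SmB core protein of the spliceosomal snRNPs, was at 0.0879 and 0.114. Tcp1, a subunit of the cytosolic chaperonin, was at 0.0988 and 0.108. In each of these 3 genes both libraries were far under the median. Ccdc82 was at 0.0911 and 0.0913, Tomm20, the import receptor of the outer mitochondrial membrane, at 0.164 and 0.110, and Ranbp1, a regulator of the nuclear transport GTPase Ran, at 0.186 and 0.145. Snhg11, Purg, Polr3c and Armcx3 were the other 4. Purg had no intron in the transcript chosen for it, and from which reads its processing rate was computed is not given in the sources used here. The same holds for Id2.

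By family, 15.7% of all genes were fast and 17.0% slow in processing. Activity-induced genes had the highest median by the mean of the libraries, 19.0 (15.6 at 20 min and 22.3 at 60 min), with 10 of 16 fast: Rgs2 was at 68.8 and 59.6 and Trib1, a pseudokinase gene, at 44.4 and 70.4. GABA and glycine receptor genes had a median of 14.2 (17.0, the highest of that library, and 11.9) with 4 of 9 fast, led by Gabra5 at 29.9 and 30.1. Potassium channel genes had 16 of 40 fast and 5 slow. The serine/arginine-rich and hnRNP splicing factors stood at the other end with a median of 2.42 (3.71 and 1.73), 14 of 21 slow and 0 fast. Srsf5 was at 1.74 and 0.746, Srsf6 at 1.48 and 0.892 and Srsf1 at 2.96 and 1.23, all lower at 60 min. These proteins bind exons and introns to direct splicing, and their own genes are known for introns around poison exons that are often retained. Cytosolic ribosomal protein genes (4.58, 16 of 41 slow) and DNA replication and repair genes (4.72, 17 of 47 slow) were also processed more slowly than the median gene, although they lay at opposite ends for synthesis.

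In 29 genes (0.411%) processing was slower than degradation, which is the same as an implied premature level above the implied mature level. Tomm20 was the most extreme, with a premature level of 25.8 against a level of 0.274, a ratio of 93.9. Champ1, a kinetochore-linked zinc finger gene, had 15.3 against 0.399 and Gapdh 0.565 against 0.0242. Tcp1 (26.7 against 7.28), Hmgn2 (2.06 against 0.519), Tug1 (17.4 against 6.58) and Purg (19.6 against 6.76) were less extreme. Gapdh, Tomm20 and Hmgn2 have many processed pseudogene copies in the mouse genome, and the sources used here do not say how reads shared between copies were assigned. The part of such copies in these values was not tested, and rates of these genes are uncertain.

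**Figure D4:**
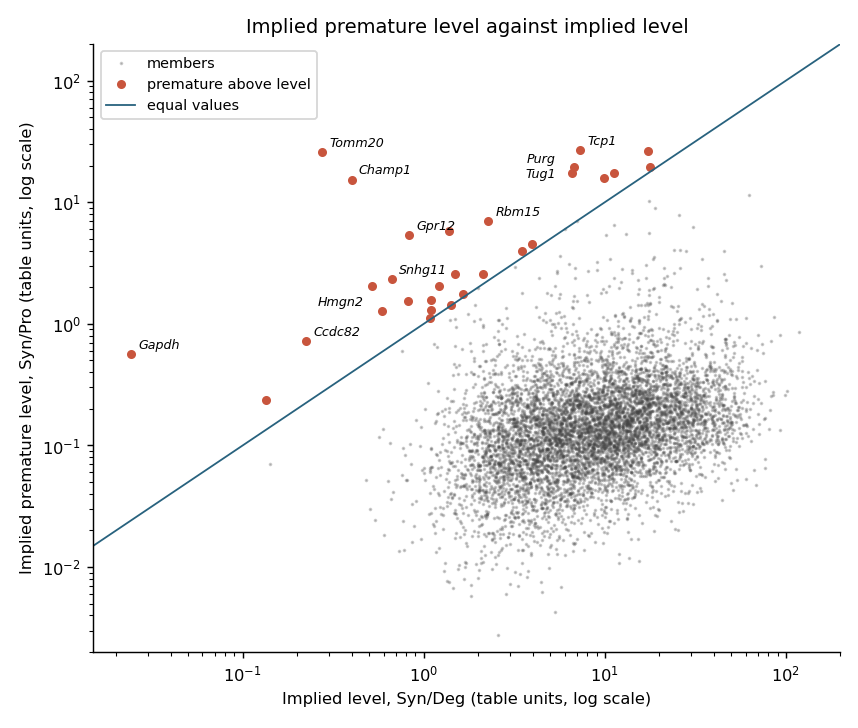
Implied premature level (synthesis over processing rate) against implied mature level (synthesis over degradation rate) for 7049 genes, in table units on log scales; the line marks equal values and red points are the 29 genes above it. Tomm20, Champ1 and Gapdh lie farthest above the line and most genes lie 10-fold or more below it.

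Among families, cytosolic ribosomal protein genes had the highest premature level, 0.693, with 36 of 41 in the highest 25% of all genes, a share that is 25.0% of all genes by construction. Splicing factors followed at 0.475 with 18 of 21 high. In ribosomal protein genes fast synthesis and slow processing combined, as in Rpl28, with a processing rate of 0.534 and 0.477 and a premature level of 4.05. The lowest premature levels were in GABA and glycine receptors (0.0731, 6 of 9 in the lowest 25%, again 25.0% of all genes), voltage-gated sodium and calcium channels (0.0760, 12 of 24 low), cadherins and protocadherins (0.0821, 8 of 16 low) and glutamate receptors (0.0823, 6 of 13 low). Of the 61 cadherin and protocadherin genes in the table only those 16 were kept, and without the lowest 25% of implied levels their median lay 0.24 log2 units above all genes, the opposite direction. Of single genes, Rnf128, a ubiquitin ligase gene on the X chromosome, had the lowest, 0.00276, followed by Col26a1 at 0.00424 and Trpc5, a cation channel gene, at 0.00583. The lowest 10 also held Gpc3, Pik3cd, Hspg2, Gfra2, Anxa11, Celsr1 and Klhdc1.

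Degradation was fastest for Gapdh, the glycolytic enzyme gene, at 30.1 and 16.7, then Tomm20 at 15.4 and 10.3 and Champ1 at 11.2 and 13.4. By the geometric mean of both libraries these 3 stood 114-fold or more above the median, each also among the 29 genes with processing slower than degradation. Rates of Gapdh and Tomm20 are uncertain, and the part of the copies named above was not tested. Next came Zfp825, a zinc finger gene, at 2.75 and 4.19 (3.47 ± 1.02, SD, n = 2; geometric mean 31.7-fold above the median), and Arl4d, an Arf-like GTPase gene, at 2.23 and 3.81. Btg1, which encodes an antiproliferative protein that recruits deadenylases, was at 3.39 and 2.03, the receptor gene Gpr12 at 2.71 and 2.34, and Arrdc3 at 3.03 and 1.92. Alkbh4, at 0.815 and 5.84, and the deubiquitinase gene Yod1, at 1.10 and 4.13, were far higher at 60 min. Arrdc3 was the only one of the 10 that was also among the 10 fastest made.

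The most slowly degraded RNA was that of Emid1, an extracellular matrix gene, at 0.0134 and 0.00949 (0.0115 ± 0.0028, SD, n = 2), with a geometric mean 9.49-fold under the median. Cpne6 and Cpne7, calcium-dependent phospholipid-binding copines of neurons, were at 0.0207 and 0.0106 and at 0.0214 and 0.0126. Enpp2, whose product makes lysophosphatidic acid, at 0.0324 and 0.0105, and the chromatin remodeller gene Smarcd3, at 0.0297 and 0.0122, were lower at 60 min. Arhgef25, at 0.0114 and 0.0242, was lower at 20 min. P4ha3, Yif1b and Cds1 were also among the 10 lowest. The slow end was less settled than the fast end: 95 genes lay in the lowest 5% in both libraries, against 212 in the highest 5%.

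For degradation, 16.6% of all genes were fast and 14.7% slow. Activity-induced genes had a median of 0.558 (0.504 and 0.678), 5.20-fold above all genes, and 12 of 16 were fast with 0 slow. Trib1 was at 1.61 and 2.56, the MAP kinase phosphatase gene Dusp1 at 2.19 and 1.58, and Rgs2 at 1.87 and 1.62. Bdnf was degraded quickly as well, at 0.496 and 0.530, although its synthesis was close to the median, and Homer1, a postsynaptic scaffold gene with a short activity-induced form, was at 0.150 and 0.148. Only 16 of the 35 activity-induced genes listed in the table passed the rule. Among those that did not, the intronless genes Jun (0.712 and 0.609), Junb (1.11 and 0.596) and Ier2 (2.21 and 0.908) have no processing rate but had degradation rates as high, while intronless Jund was at 0.126 and 0.0895. Btg2, Klf6 and Npas4 were among the 6 genes left out by the bound of 1000, each with values over it in 1 library and a degradation rate of 1.48 to 3.77 in the other. The largest value inside the bound was 156, the processing rate of Sgk1 at 60 min, so no gene lay near it.

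Zinc finger transcription factors were the largest short-lived family. The 167 Zfp genes had a median degradation rate of 0.277 (0.224 and 0.318), 95 of them fast and 1 slow (42 of the 89 left without the lowest 25% of implied levels), and the 39 Zbtb, Zkscan and Zscan genes one of 0.280 (0.214 and 0.419), with 23 fast and 0 slow. Both were raised in each library. Zfp281, which encodes a transcriptional repressor, was at 0.966 and 1.46, and Zbtb24, a gene needed for centromeric DNA methylation, at 0.971 and 0.939. Homeobox, Sox, Fox and helix-loop-helix factor genes were intermediate at 0.174, with 13 of 36 fast, and spread from Bhlhe40 at 0.702 and 1.28 to Cux2, an upper-layer neuron factor gene, at 0.0413 and 0.0137. Genes of RNA polymerase II, its general factors and Mediator had a median of 0.160 and 18 of 53 fast.

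At the low end of degradation stood 7 families. Glycolytic enzyme genes had a median of 0.0504 (0.0739 and 0.0373), the lowest at 60 min but not at 20 min, where citrate cycle enzymes were lowest at 0.0662. Gapdh is one of the 8. Voltage-gated sodium and calcium channel genes were at 0.0509, with 13 of 24 slow and 0 fast: the beta subunit gene Cacnb3 was at 0.0404 and 0.0163 and Cacng7 at 0.0607 and 0.0124. Potassium channel genes, by contrast, had a median of 0.117 (0.118 and 0.105), with 6 of 40 fast and 8 slow, close to all genes. Citrate cycle enzymes (0.0554, 6 of 11 slow), V-ATPase subunits (0.0613, 3 of 8 slow), synaptic vesicle fusion and SNARE proteins (0.0657, 13 of 32 slow), peroxisomal and fatty acid oxidation genes (0.0658, 7 of 28 slow) and oxidative phosphorylation subunits (0.0695, 9 of 42 slow) followed. The oxidative phosphorylation count is not far from the share of all genes: 21.4% were slow against 14.7%. It became 16 of 42 by the 20 min and 19 of 42 by the 60 min library alone, where 25.0% of all genes are slow, and 4 of 41 without the lowest 25% of implied levels, where 14.4% are. Within these families Cycs, the gene of cytochrome c, was an exception at 0.854 and 0.379, as was Vamp3, a SNARE gene of recycling endosomes, at 0.484 and 0.736. Cycs also has many processed pseudogenes, whose part in its rates was not tested. These 7 family medians were all lower at 60 min than at 20 min, and below the median of all genes in both libraries. Family medians of degradation had a higher rho between libraries (0.830 over 40 families) than those of synthesis (0.662) or processing (0.530). Single genes did not follow this order, with rho of 0.70 in degradation, 0.753 in synthesis and 0.741 in processing. The difference between libraries is the same for the 3 rates of a gene, so it does not single out degradation.

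AU-rich elements are a classical destabilising signal of 3′UTRs, and the motif TATTTAT was searched on the transcript strand in the GENCODE M21 3′UTRs of 6875 genes. It was found in 2154 (31.3%). The sites nearest the stop codon are shown for the genes with one among the 10 fastest degraded and the 10 fastest made, with the motif in capitals:
Tomm20: attgtctgttcTATTTATttttccagtga
Yod1: gttatgcaccgTATTTATagagcttacct
Plk2: aataaacttttTATTTATtacagccccaa
Spry2: agtgtaaagaaTATTTATttgaagtttta
Efnb2: aagataggacaTATTTATaataggtgtat
They lie at chr8:126934837-126934865 (minus strand), chr1:130721429-130721457 (plus), chr13:110400734-110400762 (plus), chr14:105892092-105892120 (minus) and chr8:8619206-8619234 (minus), with 4, 6, 2, 2 and 2 sites in 3′UTRs of 4348, 4939, 620, 856 and 3154 bases. Their degradation rates were 15.4 and 10.3 for Tomm20, 1.10 and 4.13 for Yod1, 0.512 and 0.871 for Plk2, 1.10 and 1.42 for Spry2, and 0.333 and 0.490 for Efnb2. The other 14 genes of both lists, including Mycn, Arl4d and Btg1, had none in the chosen transcript.

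Over all genes the motif went with only slightly faster degradation once 3′UTR length was taken into account. It occurred in 39.8% of fast-degraded and 23.1% of slowly degraded genes, but their median 3′UTRs were 1487 and 915 bases long. Within 5 classes of 3′UTR length, each with as many genes, median degradation with the motif was 1.06 to 1.12 times that without it, and in the 2 shortest classes the 20 min library gave 0.930 and 0.907, the opposite direction. The Pumilio motif, TGTANATA, bound by the Pumilio repressors, was found in 28.5% of genes, with ratios of 1.29 in the shortest class and 1.03 in the longest, where the 20 min library gave 0.973. The 3 microRNAs shown here, abundant in brain, were looked at in the same way. They are given with their seed (bases 2 to 8) in capitals, as RefSeq gives them:
mmu-miR-9-5p: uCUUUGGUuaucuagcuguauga
mmu-let-7a-5p: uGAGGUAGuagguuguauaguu
mmu-miR-128-3p: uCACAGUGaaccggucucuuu
Their seeds differ, so each has its own site, which is ACCAAAG for miR-9. For let-7a the site searched was CTACCTC. For miR-128 it was CACTGTG. Ratios of degradation with a site to that without, over the classes of 3′UTR length, ran from 0.877 to 1.07 for miR-9, from 0.940 to 1.20 for let-7a and from 0.873 to 1.06 for miR-128, on both sides of 1.

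Gene structure was described next. Intron number, counted in the chosen transcript of 7041 genes, correlated with degradation rate (rho -0.394, with -0.370 in the 20 min and -0.368 in the 60 min library) and with synthesis rate (rho -0.313). In the 250 genes with 1 intron, median degradation was 0.272 (0.260 and 0.277), and 151 (60.4%) were fast and 6 (2.40%) slow. In the 962 genes with over 20 introns it was 0.0691 (0.0776 and 0.0627), and 27 (2.81%) were fast and 326 (33.9%) slow. Median synthesis went from 2.25 to 0.693 over the same classes, so implied levels moved little, from 8.01 to 9.79. The relation with degradation was present within each of 5 equal classes of transcript GC content (rho -0.351 to -0.506) and of spliced length (-0.247 to -0.518). Within classes of implied level it was -0.406 to -0.462, and that of intron number with synthesis -0.413 to -0.464. With synthesis over degradation held nearly fixed the 2 rates rank genes much alike, so these classes cannot separate degradation from synthesis.

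**Figure D5:**
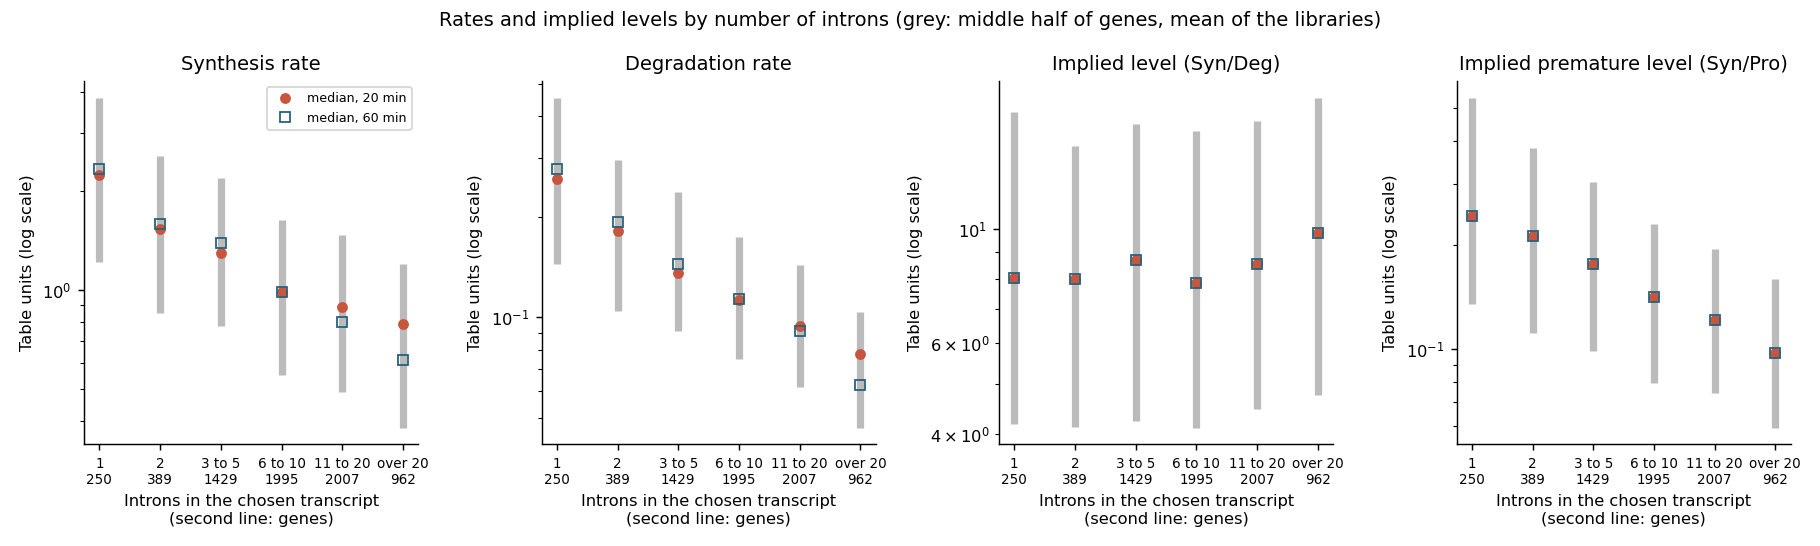
Median synthesis rate, degradation rate, implied level and implied premature level by number of introns, in table units on log scales, for the 20 min (circle) and 60 min (square) libraries; grey bars are the interquartile range of genes by the mean of the libraries. Synthesis, degradation and premature level fall from 1 intron to over 20, while the implied level goes from 8.01 to 9.79. Circles and squares coincide for the implied levels, which are the same in both libraries and show no replicate spread.

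Families were then set against genes with as many introns. Activity-induced genes, with a median of 3 introns, were degraded 3.85-fold faster than the genes of their intron classes (3.10-fold at 20 min and 5.21-fold at 60 min). The Zfp genes, with a median of 4, were 1.88-fold faster (1.64 and 2.22), less than the 2.58-fold over all genes. Oxidative phosphorylation genes have few introns too, a median of 3, but were degraded at 0.513 times the rate of their intron classes (0.619 and 0.448). The sodium and calcium channel genes, with a median of 26 introns, were at 0.620 times theirs (0.804 and 0.553).

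Intron length went with processing. With genes sorted by their longest intron into 5 classes of equal size, median processing went from 4.91 in the shortest to 10.4 in the longest class (5.63 to 9.98 at 20 min and 4.23 to 10.5 at 60 min) and implied premature level from 0.219 to 0.0987. Between the same classes synthesis went from 1.09 to 0.985, but from 1.27 to 0.922 at 20 min and from 0.976 to 1.02 at 60 min, in opposite directions. How the authors scaled intronic reads by intron length is not given in the sources used here, and its part in this relation was not tested.

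Transcripts rich in G and C had lower degradation rates. From the lowest to the highest of 5 classes of transcript GC (medians 42.0% and 58.3%), median degradation went from 0.146 to 0.0768, in both libraries (0.130 to 0.0876 at 20 min, 0.160 to 0.0646 at 60 min), and implied level from 6.02 to 11.3. Median synthesis was 0.984 to 1.03 over the 5 GC classes, but went from 0.913 to 1.19 at 20 min and from 1.08 to 0.825 at 60 min, in opposite directions. For 3′UTR length the libraries differed, with degradation going from 0.0814 in the shortest to 0.144 in the longest class at 60 min and from 0.111 to 0.110 at 20 min. The log2 difference between the 60 and the 20 min library itself correlated across genes with 3′UTR length (rho 0.303) and GC content (rho -0.265), so relations of rates with these features depend on which library is read.

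Implied levels of mature RNA, read as the balance of synthesis and degradation, were highest for Ttc9b at 118, the signalling adaptor gene Shc3 at 102, Podxl2 at 99.2 and Icam5, a dendritic adhesion gene of forebrain neurons, at 93.0. They were followed by Wbp2, C1qtnf4, Agpat1, Cd47, Olfm2 and Ptov1 at 92.7 down to 82.3. Ttc9b (chr7:27653915-27657346, plus strand) combined a synthesis rate of 4.31 with a degradation rate of 0.0366 as means of the libraries. The lowest levels were those of Gapdh (0.0242), Gnb1l (0.135) and Zfp825 (0.142), then Ccdc82, Tomm20, Champ1, Cxcl12, Park2, Hmgn2 and Oser1. Gapdh is normally among the most abundant mRNAs of a cell, and its value here is uncertain. The part of the copies named above in it was not tested. Families with high levels were V-ATPase subunits (31.9, 6 of 8 in the highest 25%), glycolytic enzymes (27.6, 6 of 8), oxidative phosphorylation subunits (27.4, 34 of 42), cytosolic ribosomal proteins (22.3, 29 of 41) and proteasome subunits (20.7, 20 of 31), against 25.0% of all genes. DNA replication and repair genes had the lowest, 3.17, with 32 of 47 in the lowest 25%. Zfp genes were at 4.63 with 78 of 167 low, whereas activity-induced genes, made and degraded quickly, were at 7.61, close to the median of all genes.

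Genes were finally sorted by both rates. Of the 7049 genes, 361 (5.12%) were made fast and degraded fast, with a median level of 9.49. Champ1, Mycn and Tomm20 led them, and Mex3b, Spry2, Myc and Sgk1 were among the leading ones. The 78 genes (1.11%) made fast and degraded slowly had a median level of 52.1. Among them were Ttc9b, Shc3, the adhesion genes Cntn1 (level 80.4) and Nlgn3 (73.2) and Mtpn (77.1). A further 48 genes (0.681%) were made slowly and degraded fast, with a median level of 1.39, and 285 (4.04%) were slow in both, with a median of 5.93. By single rates, 16.2% of all genes were fast and 16.4% slow in synthesis, and 16.6% and 14.7% in degradation. The high and low levels of the 78 and the 48 genes follow from their classes, since the level is synthesis over degradation. A factor shared by a gene's rates in a library moves synthesis and degradation the same way. Within a library, synthesis and degradation correlated across genes (rho 0.208 for the 20 min and 0.510 for the 60 min library), but the rates of a gene share one factor there. Read across libraries, synthesis at 20 min against degradation at 60 min gave 0.0670 and the reverse 0.211. Synthesis and processing gave 0.265 and 0.298 across libraries, and processing and degradation -0.0763 and 0.0146.

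Genes of the X chromosome, of which there were 211, had a median synthesis rate of 0.70 (0.806 and 0.648), against 1.01 (1.03 and 1.00) for the 6826 autosomal genes. Their degradation was slower too, 0.0831 (0.0970 and 0.0772) against 0.108, and their implied level was 6.93 against 8.47. Noncoding RNAs were few. The 26 long intergenic RNAs had a median processing rate of 4.21 (6.43 at 20 min and 3.36 at 60 min), against 7.28 (7.38 and 7.30) for protein-coding genes, so the difference was small at 20 min. Their median degradation rate was 0.175 (0.192 and 0.186) against 0.107, and their median level 2.85 against 8.48. Meg3, an imprinted neuronal noncoding RNA that stays in the nucleus, was processed slowly, at 0.333 and 0.223, and degraded slowly, at 0.0754 and 0.0506. Mirg, its neighbour that hosts microRNAs, was degraded quickly at 1.64 and 2.26. Xist, which silences the inactive X chromosome, was processed quickly at 33.7 and 17.8, and Tug1 slowly at 0.192 and 0.158.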

How the data were processed

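RNA labelled with 5-EU for 20 or 60 min was sequenced after pull-down, beside inputs, per the labels' protocols, which give removal of ribosomal RNA, fragmentation and inserts of 50 to 200 nt. The submitters' processing notes name cutadapt, Bowtie2, TopHat2, HISAT2 and limma and the builds mm10, dm6 and sacCer3. The authors deposited linear rates per gene and library in a table named for INSPEcT, which models new and total RNA from exonic and intronic reads. The use of the spike-ins, the annotation and the handling of reads shared between copies are not given in the sources used here. Without counts the depth of a library, and with it the counting error of a rate, is unknown.

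Rates were averaged on the log2 scale over the 2 libraries with no pseudocount. Fast or high (slow or low) meant the highest (lowest) 25% in both libraries. Named genes were the 10 highest and 10 lowest per quantity among genes in the highest (lowest) 5% in both libraries, passing over predicted (Gm, Rik) and mitochondrial genes, and up to 3 genes at each end of a family. Other genes were named because they are on the marker, activity or noncoding lists, or, for Cntn1, Nlgn3, Mtpn, Myc, Sgk1 and the TATA genes, after their values were seen. Some genes that this rule names are not reported here. Members and lists were chosen with earlier results of these data known. Gene structure came from 1 transcript per gene, that with the longest coding sequence, in GENCODE M21 (GRCm38), matched by current or older symbol for 7041 genes (99.9%), and promoters and microRNAs from RefSeq. All columns of the rate table's wild-type samples were used (0 left out). Correlations are across genes, which are not independent replicates, and carry no p-value. Scripts ran in Python 3.11.15 with pandas 2.3.3, NumPy 2.4.6 and SciPy 1.17.1, and were checked on simulated data. The alternatives tried were each library alone, other bounds, all genes with both values of a quantity, a pseudocount, linear means and merged gene models. Further ones left out low implied levels, predicted genes or genes whose ratios differ between libraries.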

Additional observations from a re-analysis of the deposited data

How the results depend on the processing

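No paired analysis was possible because one group alone was described. The depth is unknown, and with 1 library per labelling time the spread cannot be split into time and error. Of 294 summary values recomputed over 11 alternative settings, 239 stayed within the spread between libraries or within 1.5 times a count, 54 moved and 1 reversed. The 239 include values fixed in advance. Leaving out genes whose ratios differ between libraries removed none of the 7049, so nothing could move there. Medians of the implied levels are the same in either library alone. Using all genes with both values left processing and premature level at the same 7049 genes. Leaving out the lowest 25% of implied levels moved the medians to 1.23 (synthesis), 8.21 (processing), 0.0954 (degradation), 11.5 (level) and 0.153 (premature level). It moved the fast-made ribosomal protein genes from 28 of 41 to 18 of 40 (45%, 15.6% of all genes), the fast-degraded Zfp genes from 95 of 167 (56.9%) to 42 of 89 (47.2%, 15.4% of all genes) and the slowly degraded oxidative phosphorylation genes from 9 of 42 to 4 of 41. This filter uses synthesis over degradation, so it removes fast-degraded genes by construction. That setting left 0 of the 10 slowest made, 4 of the 10 slowest processed, 1 of the 10 fastest degraded, 0 of the 10 lowest levels and 3 of the 10 lowest premature levels in their lists. It gave rho of -0.392 for degradation and level, -0.403 for intron number and degradation and -0.354 for intron length and premature level. It also turned the low premature level of cadherins and protocadherins to 0.24 log2 units above all genes. Using all genes with both values gave medians of 1.03 (synthesis), 0.110 (degradation) and 8.45 (level), 19 of 24 fast-degraded activity-induced genes in place of 12 of 16, and rho of -0.421 for intron number and degradation. It kept 0 of the 10 fastest made, 6 and 2 of the 10 fastest and slowest degraded and 0 of the 10 highest levels, because genes without a processing rate then enter, whose level includes premature RNA. With no upper bound 6 of the 10 fastest made and 4 of the 10 fastest degraded were kept, the median level was 8.39 and rho of intron length and premature level -0.373. A bound of 100 kept 1 of the 10 fastest processed, since it removes the others, and gave -0.373 for that rho. Without predicted genes the median level was 8.49 and the rhos -0.391 (intron number and degradation) and -0.373 (intron length and premature level). Merged gene models gave -0.358 and -0.369. Either library alone gave 0.109 for median degradation, 16 (20 min) and 19 (60 min) slowly degraded oxidative phosphorylation genes (of 42, with 25.0% of all genes slow in place of 14.7%), -0.370 and -0.368 for intron number and degradation, and kept 3 and 6 of the 10 slowest made, 6 and 6 of the 10 fastest processed and 4 and 1 of the 10 slowest degraded. From the 20 to the 60 min library alone, median processing was 7.34 and 7.25, and rho was 0.417 and 0.588 for synthesis and processing, -0.00583 and 0.385 for processing and degradation (0.122 with both libraries), -0.458 and -0.411 for degradation and level, -0.261 and -0.328 for intron number and synthesis, 0.227 and 0.306 for longest intron and processing, and -0.205 and -0.330 for GC and degradation. Of 45 family differences of at least 0.7 log2 units, recomputed as 381 values, 1 reversed and 100 moved beyond the spread between libraries. The cause of these shifts was not tested where none is named.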

Other observations

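Genes with synthesis and degradation rates but no processing rate in one or both libraries, 850 of them under the bound of 1000, fell outside the description above. Their median synthesis rate was 1.44, their median degradation rate 0.139 and their median implied level 8.74, which here includes premature RNA wherever a library lacks a processing rate. The 37 histone genes had a median synthesis rate of 5.49, but 9.62 at 20 min and 3.03 at 60 min, and a median level of 25.2. Of the 842 genes of the group with a gene model, 282 (33.5%) lacked introns in the chosen transcript, against 9 of the 7041 genes described above.

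Small RNA genes had extreme values there. The 67 microRNA genes had a median synthesis rate of 6.12 (8.05 at 20 min and 6.32 at 60 min) and a median degradation rate of 0.545 (0.573 and 0.448). The 7 small nucleolar and Cajal body RNA genes had a median implied level of 849, with a range from 93.0 to 2585, and a median degradation rate of 0.0141, with 0.0291 at 20 min and 0.00683 at 60 min. Some rates repeated: 37 of the 67 microRNA genes (55.2%) shared their 20 min degradation rate with another of them to the last digit given, 11 of them at 0.573, and 27 (40.3%) did so at 60 min. Of the other 783 genes without a processing rate, 134 (17.1%) at 20 min and 26 (3.32%) at 60 min shared a value. Among the 7049 genes with all 6 values, 107 (1.52%) and 71 (1.01%) shared a value.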
